A study of Mus musculus with 4 samples.

Results

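The genes described here are 37 mouse genes of DNA repair and of the checkpoints that respond to damaged or stalled DNA, measured in lungs of Fgf8 hypomorph and wild type fetuses at E18.5. They were chosen by name, and every probe whose array annotation gives one of the 37 names was kept. Of the 37 genes, 36 had a probe, with 65 probes on 74 spots per array. Atr, the kinase that answers to single-stranded DNA, was not analysed here, because no probe carries that name. Of the 36 genes, 35 were tested among 20611 genes in all. The probe of H2afx, the histone variant that is phosphorylated beside DNA breaks, was not tested, because the scanner software marked its spot as an outlier on 2 of the 4 arrays.

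DNA breaks that arise when a replication fork stalls are repaired by homologous recombination, which copies the lost sequence from the sister chromatid. Resection of the broken end exposes single strands, Brca1 and Brca2 act on the resected ends, and the Fanconi anaemia proteins unhook crosslinks that block the fork. The kinases Atm and Atr signal through Chek2 and Chek1 to hold the cell cycle, and mismatch, base excision, nucleotide excision and end joining repair deal with other lesions. Many genes of these pathways are transcribed mainly in the S and G2 phases of the cell cycle, and cells of the fetal lung still divide shortly before birth.

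The study compared lungs with reduced Fgf8, which encodes a secreted fibroblast growth factor, with lungs of wild type fetuses. The hypomorph genotype is given as Fgf8H/- and the wild type as Fgf8+/+, both on a c57nl7/sv129 background. Lung lobes were taken without the large airways and vessels, and RNA of 3 lungs of 1 genotype was pooled for each sample. Pairs of pools, with Cy5 on the hypomorph and Cy3 on the wild type RNA, were hybridised to 4 arrays without a dye swap, which gives n = 4 pools per genotype. The sample titles write the hypomorph as AP/N and do not spell those letters out. Pools average over animals, so the spread below is that between pools and not between single fetuses. Because bulk tissue was measured, more cells of a type and more RNA per cell cannot be told apart.

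Each array has 43379 spots beside its controls, of which 32491 to 33744 were well above background in the wild type channel and 32731 to 34519 in the hypomorph channel. Ratios are log2 values with the hypomorph in the numerator, and means carry the SD between arrays. A gene was called higher or lower in the hypomorph at a Benjamini-Hochberg adjusted p under 0.05 in limma's moderated test over all 20611 genes. Spike-in RNAs gave slopes of observed on expected log ratios of 0.690 to 0.718, so the ratios are compressed. The probe of Fgf8 gave ratios of -0.31, -0.23, -0.09 and -0.09 on arrays 1 to 4, with a mean of -0.18 ± 0.11 and a limma adjusted p of 0.0549, and was not called. Of a list of 10 lung epithelial markers, 7 were measured, namely Sftpb, Sftpa1, Nkx2-1, Aqp5, Pdpn, Cdh1 and Epcam. Sftpc, Sftpd and Scgb1a1 gave no tested value.

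Promoter sequences were searched for letters known from cell cycle promoters, in members that were called and in members that were not. RefSeq promoter windows of build GRCm38.p6, from 250 bases before to 50 bases after the gene start, matched 31 of the 37 genes by symbol. The genes without a match were Rad50, Nbn, Exo1, Xrcc2, Fancd2 and H2afx. The E2F-type letters TTTCGCGC or TTTGGCGC, searched on both strands, were found in 4 of 31 members, which is 12.9%, against 0.929% of the 27025 genes in the table. The 4 windows belong to Topbp1 and Clspn, which were called higher, and to Rad51c and Msh3, which were not called. They are shown over 30 bases, 5′ to 3′ on the strand of the gene, with the matched letters in capitals.
Topbp1: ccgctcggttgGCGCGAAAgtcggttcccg
Clspn: accgcgtctggGCGCGAAAgctcgaacttc
Rad51c: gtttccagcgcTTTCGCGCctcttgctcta
Msh3: gccgtcaagTTTGGCGCGAAAtcgcagccc
The stretch of Topbp1 lies at chr9:103305187-103305216 on the plus strand, from base -140 to base -111 before the start. That of Clspn lies at chr4:126556990-126557019 on the plus strand and spans bases 11 to 40 after the start. That of Rad51c lies at chr11:87404477-87404506 on the minus strand and spans bases 1 to 30 after the start. That of Msh3 lies at chr13:92355185-92355214 on the minus strand, from base -211 to base -182. In Msh3 a match on each strand overlaps the other, which gives its longer run of capitals.

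The CCAAT box, searched as CCAAT on both strands, was found in 16 of the 31 members, 51.6%, against 41.1% of all genes in the table. Of the 14 members that were called higher and have a window, 7 held it. The 100 bases before the start are shown for Brca1, Rad54l and Clspn, members called higher, and for Ercc2, the member that was called lower. Capitals mark CCAAT or its complement ATTGG.
Brca1: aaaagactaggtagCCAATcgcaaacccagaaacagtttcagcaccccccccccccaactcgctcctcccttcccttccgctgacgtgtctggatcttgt
Rad54l: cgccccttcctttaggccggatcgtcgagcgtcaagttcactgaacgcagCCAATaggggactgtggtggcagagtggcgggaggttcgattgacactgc
Clspn: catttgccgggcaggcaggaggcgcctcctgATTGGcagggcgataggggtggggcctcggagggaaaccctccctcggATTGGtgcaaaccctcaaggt
Ercc2: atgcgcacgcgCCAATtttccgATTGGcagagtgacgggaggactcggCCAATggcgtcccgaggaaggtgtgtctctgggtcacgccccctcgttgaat
These stretches lie at chr11:101551956-101552055 and chr4:116123691-116123790 on the minus strand, and at chr4:126556880-126556979 and chr7:19381917-19382016 on the plus strand. Ercc2 holds the letters in 3 places, Clspn in 2 and Brca1 and Rad54l in 1 each. These genes were chosen for display because they hold the letters, while Ung and Chek1, which were also called higher, do not hold them in their windows. The CHR-type letters TTTGAA or TTTAAA, of which the second reads the same on both strands, were found in 2 of 31 members, Bard1 and Xrcc5, or 6.45%, against 30.6% of all genes. Matches describe letters in these windows and were not tested for use.

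Repair genes were higher in the hypomorph lungs far more often than lower. Of the 35 tested members, 17 were called higher, 1 was called lower and 17 were not called. Over all genes tested, 14% were called higher and 13.2% lower. The members had a median log2 ratio of 0.18, beside -0.00 for all genes. The members' median was 0.22, 0.19, 0.21 and 0.12 on arrays 1 to 4. Among the members 19 were above 0 on 4 of 4 arrays, a pattern that 23.3% of all genes showed. For 15 members the signals of the genotypes did not overlap, with the hypomorph above in 14 and below in 1, and 17.2% of all genes had such signals in either direction. The changes were small: the median fold of the 17 called higher was 1.26, and 3 of them, Exo1, Brca1 and Clspn, reached 1.5-fold. Of all 20611 genes, 167 were called higher with a fold of 1.5 or more.

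Centring each array on its median in place of the loess curve moved the median of all genes to 0.13. Under it 29 members were called higher and 1 lower, and of all genes 8335 were called higher and 2443 lower. Leaving out array 2 left 11 members and 759 of 19179 genes called higher, and leaving out array 3 left 10 members and 1010 of 19283 genes.

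**Figure D1:**
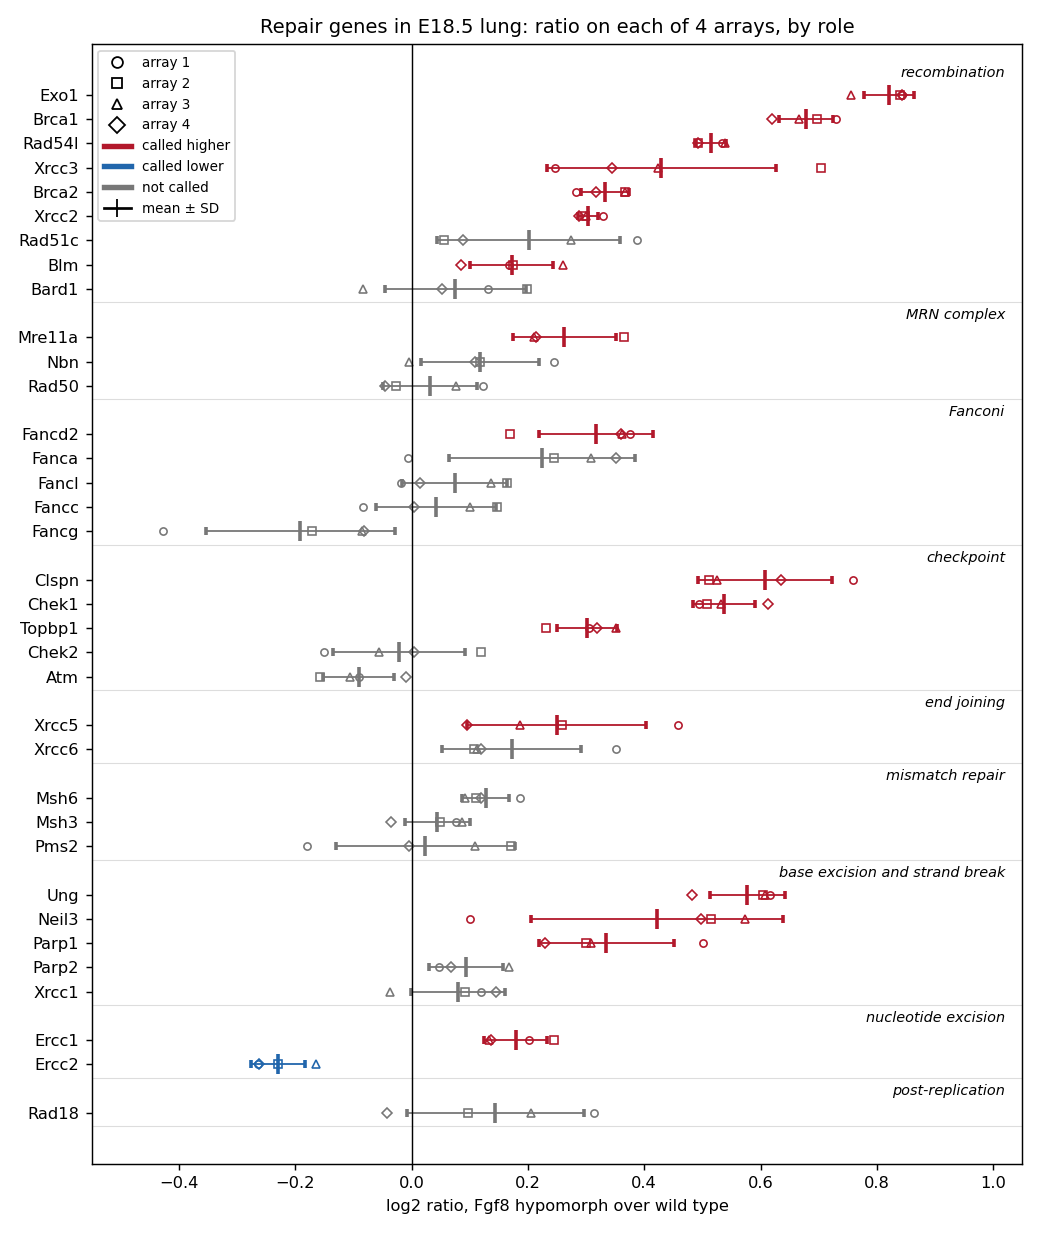
Log2 ratio, Fgf8 hypomorph over wild type, of the 35 tested repair genes on each of 4 arrays (symbols), with the mean and SD as a bar, grouped by role and coloured by the limma call. The ratios of Exo1, Brca1, Clspn, Ung, Chek1 and Rad54l lie at 0.48 or more on every array, and Ercc2 lies below 0 on every array.

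Genes of homologous recombination were the group with the most calls. Of 9 members in this role 7 were called higher and none lower, with a median of 0.33, and the 2 that were not called were Rad51c and Bard1. Exo1, the exonuclease that resects broken ends and also serves mismatch repair, had the highest ratio of all members. Its ratios were 0.84, 0.84, 0.76 and 0.84 on arrays 1 to 4, a mean of 0.82 ± 0.04 or 1.77-fold, with a limma adjusted p of 0.00104. Every hypomorph signal (log2 intensity 11.19 to 11.42) lay above every wild type signal (10.34 to 10.58). Its probe lies at position 177745226 to 177745285 on the plus strand of chromosome 1 in build mm8, and no annotation of that build was used here.

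Brca1, the ubiquitin ligase subunit that promotes resection, gave 0.73, 0.70, 0.67 and 0.62. Its mean was 0.68 ± 0.05, 1.60-fold, with a limma adjusted p of 0.00128, and the signals of the genotypes were apart (wild type 9.67 to 9.86, hypomorph 10.29 to 10.53). A second Brca1 probe, 8.81 kb away on chromosome 11, gave 0.42 ± 0.13 and was also called higher. Bard1, the partner of Brca1 in that ligase, was not called, with ratios of 0.13, 0.20, -0.08 and 0.05. Its mean was 0.07 ± 0.12 (limma adjusted p 0.351), and its genotypes overlapped at signals of 6.44 to 6.70. The Bard1 probe was the dimmest of the tested members and was well above background on 3 of 4 arrays in the wild type channel. Under the alternative settings described below, the Bard1 mean ranged from -0.13 to 0.37, so little can be read from this gene. Brca2, which acts in strand exchange after resection, gave 0.28, 0.37, 0.37 and 0.32, a mean of 0.33 ± 0.04 with a limma adjusted p of 0.00496. Its signals were apart, at 11.25 to 11.33 in the wild type and 11.56 to 11.69 in the hypomorph.

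Rad54l, a motor protein that acts in the invasion of the sister strand, had nearly the same ratio on every array, 0.53, 0.49, 0.54 and 0.49. Its mean was 0.51 ± 0.03, 1.43-fold, with a limma adjusted p of 0.0017 and signals that were apart. Rad51c works in separate complexes with Xrcc2 and with Xrcc3, and differences between these genes were not tested. Xrcc2 gave 0.33, 0.30, 0.30 and 0.29, a mean of 0.30 ± 0.02 with a limma adjusted p of 0.00547. Its ratio was above 0 on every array although its signals overlapped, with array 2 the dimmest in both genotypes. Xrcc3 ranged from 0.25 on array 1 to 0.70 on array 2, with 0.42 and 0.34 on arrays 3 and 4, a mean of 0.43 ± 0.20 and a limma adjusted p of 0.0146. Rad51c gave 0.39, 0.05, 0.27 and 0.09 and was not called, with a mean of 0.20 ± 0.16 and a limma adjusted p of 0.0713. Blm, the helicase that dissolves recombination intermediates, was called higher at a smaller size. It gave 0.17, 0.17, 0.26 and 0.09, a mean of 0.17 ± 0.07 with a limma adjusted p of 0.0387, and its signals were apart.

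Of the 3 genes of the MRN complex, which senses and trims broken ends, 1 was called higher. Mre11a, the nuclease, gave 0.37, 0.21 and 0.21 on arrays 2 to 4, its spot on array 1 being left out as marked. The mean was 0.26 ± 0.09 (n = 3) with a limma adjusted p of 0.0306. Nbn, the subunit that binds Atm, was not called, with 0.24, 0.12, -0.00 and 0.11 and a limma adjusted p of 0.139. Rad50, the ATPase that bridges the ends, lay on both sides of 0 with 0.12, -0.03, 0.08 and -0.04 and was not called (limma adjusted p 0.634).

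The Fanconi members were divided. Of 5, only Fancd2 was called higher, and the median of the 5 was 0.07. Fancd2, the protein that is ubiquitinated at crosslinks, gave 0.38, 0.17, 0.36 and 0.36, a mean of 0.32 ± 0.10 with a limma adjusted p of 0.0102, and its signals were apart. The other members belong to the core complex that carries out that ubiquitination. Fanca gave -0.01, 0.25, 0.31 and 0.35 and missed the threshold with a limma adjusted p of 0.0559, array 1 alone lying near 0. Fancl, the ligase subunit, had a mean of 0.07 ± 0.09, and Fancc had 0.04 ± 0.10. Fancg was below 0 on every array, with -0.43, -0.17, -0.09 and -0.08, a mean of -0.19 ± 0.16 and a limma adjusted p of 0.0851, and was not called.

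Of the 5 tested checkpoint members, Clspn, Chek1 and Topbp1 were called higher, and Chek2 and Atm were not called. Clspn, the adaptor that presents Chek1 to Atr, gave 0.76, 0.51, 0.52 and 0.63. Its mean was 0.61 ± 0.12, 1.52-fold, with a limma adjusted p of 0.00265 and signals that were apart (wild type 8.08 to 8.40, hypomorph 8.59 to 8.96). Chek1, the effector kinase of that branch, gave 0.49, 0.51, 0.53 and 0.61, a mean of 0.54 ± 0.05 or 1.45-fold with a limma adjusted p of 0.00178. Its wild type signals reached 9.19 at most and its hypomorph signals began at 9.41. Topbp1, the activator of Atr, gave 0.31, 0.23, 0.35 and 0.32, a mean of 0.30 ± 0.05 with a limma adjusted p of 0.0069, and its signals were apart.

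Chek2, the effector kinase of the Atm branch, scattered around 0 with -0.15, 0.12, -0.06 and 0.00. Its mean was -0.02 ± 0.11 with a limma adjusted p of 0.793. Atm, the kinase that answers to double-strand breaks, was below 0 on every array with -0.09, -0.16, -0.11 and -0.01. Its mean was -0.09 ± 0.06, the limma adjusted p was 0.16, and its signals overlapped. Other genes that act with Atr, from the list of related repair genes, were not called, with means of -0.03 for Atrip, -0.02 for Rad9a, 0.0039 for Rad1 and -0.03 for Rad17, and Hus1 was called higher at 0.18 ± 0.10 with a limma adjusted p of 0.0494. These 5 genes were singled out after their values were seen. A second Atm probe, printed on 10 spots of each array of which 9 were used, gave a mean of -0.09 ± 0.08. H2afx had values on arrays 1 and 3 alone, 0.44 and 0.30. With the marked spots kept, its mean was 0.27 with a limma adjusted p of 0.0245.

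**Figure D2:**
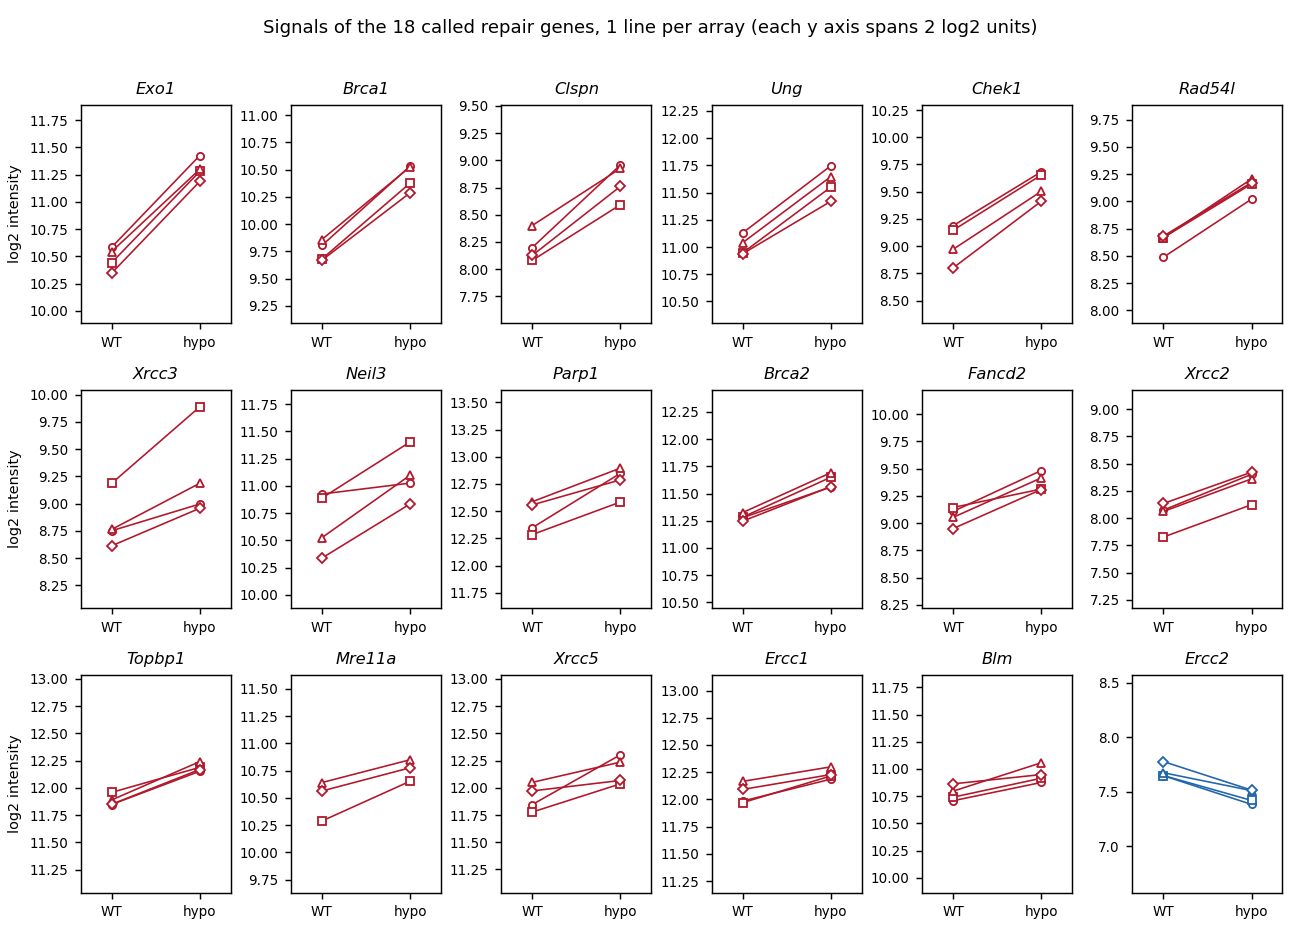
Log2 intensity of wild type (WT) and hypomorph (hypo) pools for the 18 called repair genes, with 1 line per array and each y axis spanning 2 log2 units, red for genes called higher and blue for the gene called lower. Every line rises for the red genes and falls for Ercc2, while Xrcc3, Neil3, Parp1, Xrcc2 and Xrcc5 have genotypes that overlap.

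In base excision and strand break repair 3 of 5 members were called higher. Ung, the glycosylase that removes uracil from DNA, gave 0.62, 0.60, 0.61 and 0.48. Its mean was 0.58 ± 0.06, 1.49-fold, with a limma adjusted p of 0.00171, and the signals were apart (wild type 10.94 to 11.13, hypomorph 11.42 to 11.75). Neil3, a glycosylase for oxidised bases and crosslinks, gave 0.10 on array 1 against 0.52, 0.57 and 0.50 on the others. The mean was 0.42 ± 0.22 with a limma adjusted p of 0.019, and the genotypes overlapped. Parp1, the enzyme that marks strand breaks with ADP-ribose chains, gave 0.50, 0.30, 0.31 and 0.23, a mean of 0.33 ± 0.12 with a limma adjusted p of 0.011. Parp2, its relative, had a mean of 0.09 ± 0.06 over 3 arrays, and Xrcc1, the scaffold that Parp activity recruits, had 0.08 ± 0.08. Neither of the latter genes was called, with limma adjusted p of 0.233 and 0.239.

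The Ku genes of end joining lay close together. Xrcc5, which encodes Ku80, gave 0.46, 0.26, 0.19 and 0.10, a mean of 0.25 ± 0.15 with a limma adjusted p of 0.0396, and was called higher. Xrcc6, which encodes Ku70, gave 0.35, 0.11, 0.11 and 0.12, a mean of 0.17 ± 0.12 with a limma adjusted p of 0.0679, and was not called. Both genes had their highest ratio on array 1, and the genotypes overlapped in both.

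None of the 3 mismatch repair members was called. Msh6, a subunit of a complex that finds mismatches, was above 0 on every array with 0.19, 0.11, 0.09 and 0.12, and its signals were apart. Its mean of 0.13 ± 0.04 gave a limma adjusted p of 0.0616. Msh3, a subunit of a complex that finds small loops, had a mean of 0.04 ± 0.06, and Pms2, the endonuclease subunit, had 0.02 ± 0.15. Rad18, the ligase that starts bypass of damaged template, gave 0.31, 0.10, 0.21 and -0.04, a mean of 0.14 ± 0.15 with a limma adjusted p of 0.147, and was not called.

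The nucleotide excision members were called in opposite directions. Ercc2, the XPD helicase of the transcription factor TFIIH, was the member called lower. Its ratios were -0.26, -0.23, -0.16 and -0.26, a mean of -0.23 ± 0.05 with a limma adjusted p of 0.0133, and every hypomorph signal (7.38 to 7.52) lay below every wild type signal (7.65 to 7.78). Ercc1, a subunit of the nuclease that cuts 5′ of the lesion and also takes part in crosslink repair, gave 0.20, 0.25, 0.13 and 0.14. Its mean was 0.18 ± 0.05 with a limma adjusted p of 0.0284, and its signals were apart. The probes of the pair lie 39.8 kb from each other on chromosome 7 in mm8, at 18512926 to 18513660 for Ercc1 and at 18553455 to 18553514 for Ercc2. The call of Ercc2 was lost without array 2 (limma adjusted p 0.0713), and the calls of Ercc1 and Blm were each lost when array 2, 3 or 4 was left out.

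The values above come from the brightest probe of each gene, and other probes of the same gene did not always give the same picture. With every probe as its own feature, 58 of the 65 member probes were tested, and 28 were called higher and 3 lower. Over all 29991 probes that passed the filter, 12.7% were called higher and 12.2% lower. Of 18 members with several tested probes, 5 had every probe called higher, namely Brca1, Chek1, Xrcc2, Parp1 and Fancd2. The calls of the probes differed in 10 members, but no member had a probe called higher and another called lower. The median difference between the highest and lowest probe of a gene was 0.13. Of the 7 probes that were not tested, 4 were not well above background on any array, and they belong to Fanca, Fancd2, Rad54l and Xrcc2.

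In 5 members the probe means lay on both sides of 0. The probes of Fancg gave -0.19 ± 0.16, 0.19 ± 0.11 and -0.35 ± 0.09 in order of position. The last was below 0 on every array (-0.27, -0.43, -0.41 and -0.27) and was called lower, with a limma adjusted p of 0.00737 over all probes, while the second was above 0 on every array. For Pms2 the brightest probe gave -0.18, 0.17, 0.11 and -0.00, and the other probe gave -0.54, -0.23, -0.15 and -0.16. The second was called lower, with a mean of -0.27 ± 0.19 and a limma adjusted p of 0.0452. A second Chek2 probe gave 0.27, 0.20, 0.10 and 0.40, a mean of 0.24 ± 0.13, and was called higher (limma adjusted p 0.0304), unlike the brightest. A Msh3 probe with 0.22, 0.29, 0.38 and 0.04 was likewise called higher, at 0.23 ± 0.15 and a limma adjusted p of 0.0438, and another Msh3 probe scattered from -0.46 to 0.23. The Rad50 probes had means of 0.03 ± 0.08 and -0.10 ± 0.14, and neither was called.

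In Brca2, Fancl, Mre11a, Rad18, Neil3 and Nbn the call also depended on the probe. A second Brca2 probe gave 0.11 ± 0.10 and was not called (limma adjusted p 0.158). A second Fancl probe was called higher at 0.21 ± 0.05 (limma adjusted p 0.0184). Of 3 Mre11a probes 2 were called higher, and 1, at 0.17 ± 0.09, was not called. The other Rad18 probe was called higher at 0.43 ± 0.18, with 0.40, 0.33, 0.69 and 0.29 on the arrays and a limma adjusted p of 0.0121. The 2 other Neil3 probes were not called, at 0.19 ± 0.40 and 0.01 ± 0.28, and both were below 0 on array 1 with -0.38 and -0.39. Of 3 Nbn probes the one called higher, at 0.23 ± 0.07, is the only member probe on the strand opposite to its gene's other probes, and it lies 21.6 kb from the nearest of them. Of the 65 probes, 15 span more than 60 bases of genome in their annotated positions.

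**Figure D3:**
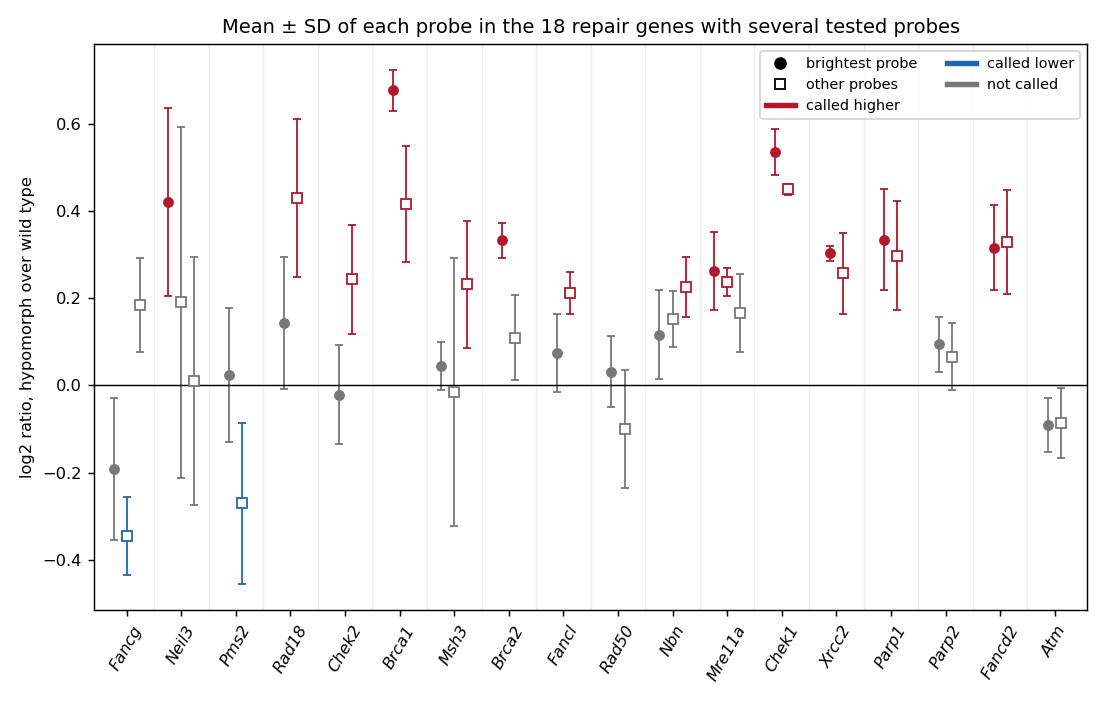
Mean log2 ratio, hypomorph over wild type, with SD over the arrays, for each tested probe of the 18 repair genes that have several, ordered from the largest to the smallest difference between probes, with filled circles for the brightest probe and open squares for the others. The probes of Fancg spread from -0.35 to 0.19, whereas those of Fancd2 and Atm nearly coincide.

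Other genes of the same pathways, on a list of 79 names of which 76 were measured, were also higher more often than lower. Of them 30 were called higher and 5 lower, beside 14% and 13.2% of all genes, and their median was 0.10. In recombination 10 of 20 were called higher and none lower, in the checkpoint group 9 of 16 and 1, and in the Fanconi group 4 of 6 and 1. In base excision repair 5 of 15 were called higher and none lower, in nucleotide excision 1 of 8 and 2, in end joining none of 5 and 1, and in mismatch repair 1 of 4 and none. Neither of the 2 direct reversal genes was called. Eme1, a subunit of a junction nuclease, had 0.63 ± 0.12, Fen1, the flap endonuclease, had 0.55 ± 0.10, and Brip1, a helicase that binds Brca1, had 0.48 ± 0.04, and all were called higher with limma adjusted p of 0.00231, 0.00303 and 0.00207.

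Of the related genes called lower, 2 serve nucleotide excision and the others serve 3 other roles. Ddb2 and Xpc, which find lesions for nucleotide excision repair, had means of -0.44 ± 0.16 (n = 3) and -0.31 ± 0.04, with limma adjusted p of 0.0168 and 0.00578. Cdkn1a, the inhibitor of cyclin-dependent kinases that Trp53 induces, had -0.30 ± 0.15, with a limma adjusted p of 0.025. Dclre1c, the nuclease Artemis of end joining, had -0.26 ± 0.17, and Fance, of the Fanconi core complex, had -0.16 ± 0.06, with limma adjusted p of 0.0446 and 0.0412. Leaving out 1 array left 70 to 74 related repair genes tested, with 13 to 28 called higher and 1 to 3 lower. The lowest count called higher was 13 without array 2, with 15 and 19 without arrays 3 and 4.

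Cell cycle genes were higher as well. All 26 measured genes of a list of 27 S phase and mitosis genes were called higher, with a median of 0.52 beside 0.18 for the repair members. Cdc6 and Mcm5, which load the replicative helicase and form part of it, had means of 0.77 ± 0.11 and 0.71 ± 0.09. Aurkb and Bub1, kinases of mitosis, had 0.64 ± 0.06 and 0.55 ± 0.04. Their limma adjusted p were 0.00153, 0.0015, 0.00145 and 0.00161. The part of cell division in the ratios of the repair genes was not tested.

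Markers of other cells gave the following values beside these groups. Of 8 measured thymus and T cell markers, 2 were called higher, Lck at 0.31 ± 0.05 and Ptcra at 0.16 ± 0.05, with limma adjusted p of 0.0062 and 0.039. Over all 8 the summed linear signal was 1205 to 1293 in the wild type pools and 1336 to 1438 in the hypomorph pools. The genotypes were apart in this sum, which includes Lck and was not taken without it. Lck itself had log2 signals of 8.75 to 8.86 in the wild type and 9.07 to 9.17 in the hypomorph. Ptcra was dim, at 6.56 to 6.70 and 6.72 to 6.90, and Cd3d, Cd3g, Cd4, Rag1 and Dntt lay between 6.42 and 7.13. The dimmest tested repair member, Bard1, had a mean log2 intensity of 6.56. How much of the sum is background was not measured. The other 6, Cd3e, Cd3d, Cd3g, Cd4, Rag1 and Dntt, had means of -0.04 to 0.07 and were not called. Of 7 erythroid markers 1 was called lower and none higher, and of 8 heart markers 1 lower and none higher. Of 7 listed liver markers 2 were measured, and none was called. Summed over the markers with values on 4 arrays (5 erythroid, 7 heart and 2 liver), their signals overlapped between genotypes, at 32768 to 45466 and 29434 to 35625 for the erythroid, 30120 to 68018 and 30315 to 48320 for the heart and 363 to 733 and 456 to 547 for the liver markers, wild type first. Of 7 lung epithelial markers 3 were called higher and 1 lower. Nkx2-1, Cdh1 and Epcam had 0.19 ± 0.09, 0.23 ± 0.09 and 0.17 ± 0.09, with limma adjusted p of 0.0374, 0.0225 and 0.0483. Aqp5 was below 0 on every array, at -0.66 ± 0.06 or 1.58-fold lower, with a limma adjusted p of 0.00144. The 6 lung epithelial markers with values on 4 arrays summed to 124262 to 137113 in the wild type and 117509 to 132825 in the hypomorph. The cell type markers beyond these lists were not examined. The part of the marker genes in the repair results was not tested.

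**Figure D4:**
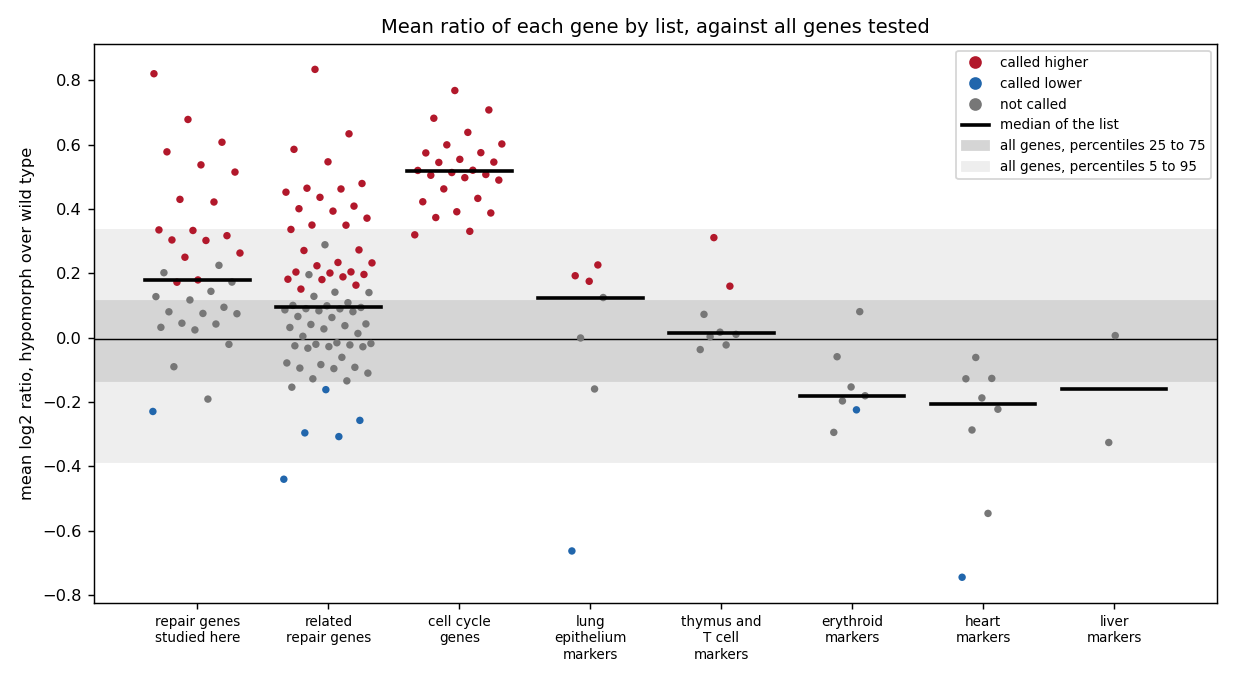
Mean log2 ratio, hypomorph over wild type, of each measured gene (points, coloured by the limma call) in the repair genes studied here, the related repair genes, the cell cycle genes and 5 marker lists, with the list median as a bar and all 20611 genes as bands. The medians are 0.18, 0.10 and 0.52 for the first 3 lists, and the middle of all genes, from percentile 25 to 75, runs from -0.13 to 0.11.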

How the data were processed

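RNA of 4 wild type and 4 hypomorph lung pools was hybridised to 4 two-colour Agilent arrays. The submitters' processing notes name Agilent Feature Extraction 9.5.1 as the scanner software. The deposited mean and local background intensities are uncorrected, per the file headers, whereas the deposited processed intensities are background-subtracted and dye-normalized. A deposited log10 column gives processed red over green and entered no test. The deposited series table of log2 values matched the log2 ratio of processed red to green, with column medians from -0.05 to -0.00. Replicates are separate pools per the labels, and p-values measure the spread between them.

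Mean intensities were corrected with normexp (offset 50) and loess (span 0.3) in limma 3.58.1 with R 4.3.3. Control spots and 2136 to 2219 outlier-marked spots per array were dropped, and repeated spots averaged. Probes had to exceed background clearly in either channel on 3 or more of the 4 arrays, with 3 or more values. Each gene was represented by its brightest probe, its mean ratio was tested against 0, and p-values were adjusted over all 20611 genes. RefSeq accessions in a table of assembly GRCm38.p6 gave current names to 24326 of 41174 probes. Saturated spots (4 to 8 in Cy5, 0 in Cy3 per array) were kept. On 5 simulated tables of 18549 genes, 76.6% of genes changed 1.5-fold and 93.4% of those changed 2-fold were called, and 4.57% of calls were false. Smaller changes, as most members show, were not simulated. The simulated tables held far fewer changed genes than were called here, drew noise independently for each gene and had no dye effect. Their share of false calls is therefore not that of the calls above.

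The members, gene lists and tests were chosen with earlier results of these data known. All 37 members are accounted for, with full values for those called and for those whose probes disagree in sign. Of the related repair and cell cycle lists the text names the 4 genes with the smallest p and those called lower, except 1 related repair gene that is not reported here, and the called T cell markers and Fgf8 were added after their values were seen. The alternatives were the processed intensities, the series table, other background corrections, normalizations, filters, probe rules and variance models, and leaving out each array. No dye swap was at hand, so a dye effect and the genotype cannot be told apart. The 4 arrays share 1 slide and 1 scan.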

Additional observations from a re-analysis of the deposited data

Results flagged for a closer look

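Of the 33 members with values on 4 arrays, 5 had 1 array far from the other arrays, measured by the gap to its neighbour as a share of the range. Chance gives about 1 such gene in 20, and the share over all genes was not taken. Array 3 was the low one for Exo1, with 0.76. Array 4 was the low one for Ung, with 0.48, and array 2 for Fancd2, with 0.17. Array 1 was low for Neil3, with 0.10, and high for Xrcc6, with 0.35. Exo1 and Ung stayed called without any 1 array, Fancd2 was not called without array 3 (limma adjusted p 0.0526), and Neil3 was not called without array 2, 3 or 4 (limma adjusted p 0.0928, 0.0752 and 0.0655).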

How the results depend on the processing

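Each member was refitted under up to 19 alternatives, which gave 662 values. Of these 598 kept the direction and the side of the threshold, 26 lost a call, 27 gained one and 11 changed sign. The series table repeats the processed intensities, and with that pair counted once 568 of 627 values kept both, 22 lost a call, 26 gained one and 11 changed sign. Of the 17 members called higher, 9 stayed called under every alternative tried: Exo1, Brca1, Clspn, Ung, Chek1, Rad54l, Brca2, Xrcc2 and Topbp1. None of the 17 changed sign under any of them. As its own feature, a second Brca2 probe was not called. The calls of Mre11a, Xrcc5, Ercc1 and Blm were lost with the processed intensities and with the series table, where 14 members were called higher, and that of Neil3 with the mean of its probes (limma adjusted p 0.204). The calls of Xrcc3 and Fancd2 were lost without array 3, at means of 0.43 and 0.30 beside 0.43 and 0.32 in the main setting. That of Parp1 was lost without array 2, at 0.35 beside 0.33. Mre11a and Xrcc5 lost theirs without array 2 or 3. Over all genes 2880 were called higher in the main setting, 759 without array 2 and 1010 without array 3.

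Under median centring, which moves the median of all genes by 0.13, 29 members, 55 related repair genes and 8335 of all genes were called higher, and 1 related repair gene was called lower. There Bard1 turned to -0.13, Chek2 to 0.077, Atm to 0.032 and Fancg to 0.039. With the mean of all probes, Rad50 turned to -0.034, Pms2 to -0.12 and Chek2 to 0.11, and with array quality weights Chek2 turned to 0.0070. Without 1 array Pms2 ranged from -0.026 (array 2) to 0.092, with -0.0046 without array 3, and Chek2 from -0.068 to 0.022 (array 1). None of these members was called in the main setting. With every probe as its own feature, 28 probes were called higher and 3 lower, because more features were counted. With separate channels, a fit that takes the 2 signals of a spot as correlated, 2 members were called lower, the second being Fancg. The processed intensities gave 2 related repair genes called lower.

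Leaving out 1 array gave 10 to 18 members called higher and 0 to 1 lower. Of related repair genes, 70 to 74 were then tested, with 13 to 28 called higher and 1 to 3 lower. Without array 1 all 26 cell cycle genes were tested and called higher. Without array 2, 3 or 4, 23 of them were tested, and 20, 21 and 22 were called higher. Over all genes, leaving out 1 array gave 759 to 2831 called higher and 690 to 2867 lower, the lowest without array 2. The cause of these shifts was not tested. The main test is already paired by array, because each ratio sets the pools of the same array against each other, and no other pairing was used. The number of arrays, 4, limits the precision.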

Other observations

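The array that gave the highest or lowest ratio was unevenly spread over the members. The same count was not taken over all genes, so the spread cannot be called particular to the members. Of the 33 members with 4 values, array 1 gave the highest ratio in 14 and the lowest in 11, array 2 in 7 and 7, array 3 in 7 and 6, and array 4 in 5 and 9. Array 1 was the highest for Parp1, Xrcc5, Xrcc6, Rad18 and Rad51c. It was the lowest for Fancg, Fanca, Fancc, Fancl, Pms2, Chek2 and Neil3. These genes were singled out after their values were seen, and no cause was tested.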
